A study of Rattus norvegicus with 372 samples.

Results

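Indomethacin is a nonsteroidal anti-inflammatory drug of the indole acetic acid type that inhibits both cyclooxygenases, and the wells treated with it at 300 µM for 24 h are described here against the vehicle wells. They make up 12 of the 372 libraries of the study, of which 6 of 186 were made with the whole transcriptome (WT) assay and the others with the smaller surrogate (ST) assay. Both assays were run on lysate of the same wells. The ST values are thus a second reading of the same cultures and no further replicate. In that study, primary hepatocytes from male Wistar rats were held between collagen layers in 96-well plates and exposed to 14 chemicals at a high and a low concentration. The whole experiment was done on cells of 2 rats, called batch 1 and batch 2, with 3 wells per treatment in each. RNA was read by TempO-Seq, in which pairs of detector oligonucleotides that sit next to each other on a transcript are ligated and counted by sequencing, so that each probe reads a short stretch of 1 gene.

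The treated wells contained indomethacin at 300 µM with 0.5% DMSO. The vehicle wells contained 0.5% DMSO alone, 3 in batch 1 and 6 in batch 2. Wells with indomethacin at 12 µM, with the PPAR alpha agonist WY14643 at 200 µM and with medium that had no DMSO are used further on. William's medium E in all of these wells held albumin, insulin, dexamethasone, epidermal growth factor, glutamine and antibiotics, so that insulin and a glucocorticoid were present in every group compared. Each batch is 1 rat, and the 3 wells of a treatment are cultures of the same cells, so that p-values measured mainly the spread between culture wells and rested on 2 animals. Library construction and sequencing were also done separately for each batch. In a difference between batches, the rat, the library construction and the sequencing run cannot be told apart. In batch 1 the vehicle wells were on plate 4 and the indomethacin wells on plate 5, so that plate and treatment cannot be told apart there. In batch 2 the indomethacin wells and 3 of the 6 vehicle wells shared plate 3.

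PPAR alpha is a nuclear receptor that fatty acids and fibrate-like compounds activate, and in rodent liver it switches on the genes of peroxisomal and mitochondrial fatty acid breakdown. CAR, PXR and AhR are receptors for foreign compounds that induce CYP2B, CYP3A and CYP1A enzymes. Cells that accumulate misfolded protein or face other stresses raise endoplasmic reticulum (ER) chaperones and, through the factor ATF4, the genes of the integrated stress response. Indomethacin is known to bind PPAR receptors at concentrations well above those that inhibit cyclooxygenase.

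WT libraries of the treated wells held 5920334 to 6695084 counted reads in batch 1 and 7023998 to 8245189 in batch 2, against 5492941 to 8264980 and 5788931 to 7199877 in the vehicle wells. Levels are given as CPM, counts relative to library size after TMM (trimmed mean of M-values) normalization, and for the 6 vehicle wells of batch 2 the median is given with the lowest and highest value in parentheses. L2FC is the log2 fold change fitted by edgeR with batch as a term, ± its standard error (SE), over 6 treated and 9 vehicle wells, and a gene was called differentially expressed (a DEG) at a Benjamini-Hochberg adjusted p under 0.05 over all 10191 genes tested. Folds are 2 raised to the L2FC, with a 95% interval from the SE.

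At 300 µM, 5579 of 10191 genes (54.7%) were called, 2764 higher (27.1%) and 2815 lower (27.6%). When libraries were scaled by total counts alone, 1824 were higher (17.9%) and 3665 lower (36%), and the median L2FC of all genes moved from 0.01 to -0.14. With a change of at least 2-fold also required, 451 genes were higher (4.43%) and 961 lower (9.43%). In each batch by itself 4173 (40.9%) and 4854 genes (47.6%) were called, the latter with 4427 genes when only the 3 vehicle wells of plate 3 were used. With total counts alone, batch 1 had 1088 higher and 3395 lower genes instead of 2165 (21.2%) and 2008 (19.7%), and batch 2 had 1852 and 2760 instead of 2648 (26%) and 2206 (21.6%). With the counts of the wells summed per rat, which leaves 2 values per group, 1987 genes were higher (19.5%) and 2068 lower (20.3%), and without batch in the fit 2409 (23.6%) and 2574 (25.3%). With medium wells in place of vehicle wells 2730 genes were higher (26.8%) and 2668 lower (26.2%). When the vehicle wells of batch 2 were limited to plate 3, 2816 genes were higher and 2457 lower. Probes in place of genes gave 3161 higher and 2735 lower. Altogether 3087 genes (30.3%) were called in each batch and in both together with the same sign. Values of treated and vehicle wells did not overlap in either batch for 2815 genes (27.6%). The ST assay of the same wells called 1058 of 1760 genes (60.1%), and of 1603 genes tested in both assays 874 were called in both, 0 of them in opposite directions. Counts within the gene lists below stand against these shares of all genes, and list medians against a median L2FC of 0.01 over all genes.

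**Figure D1:**
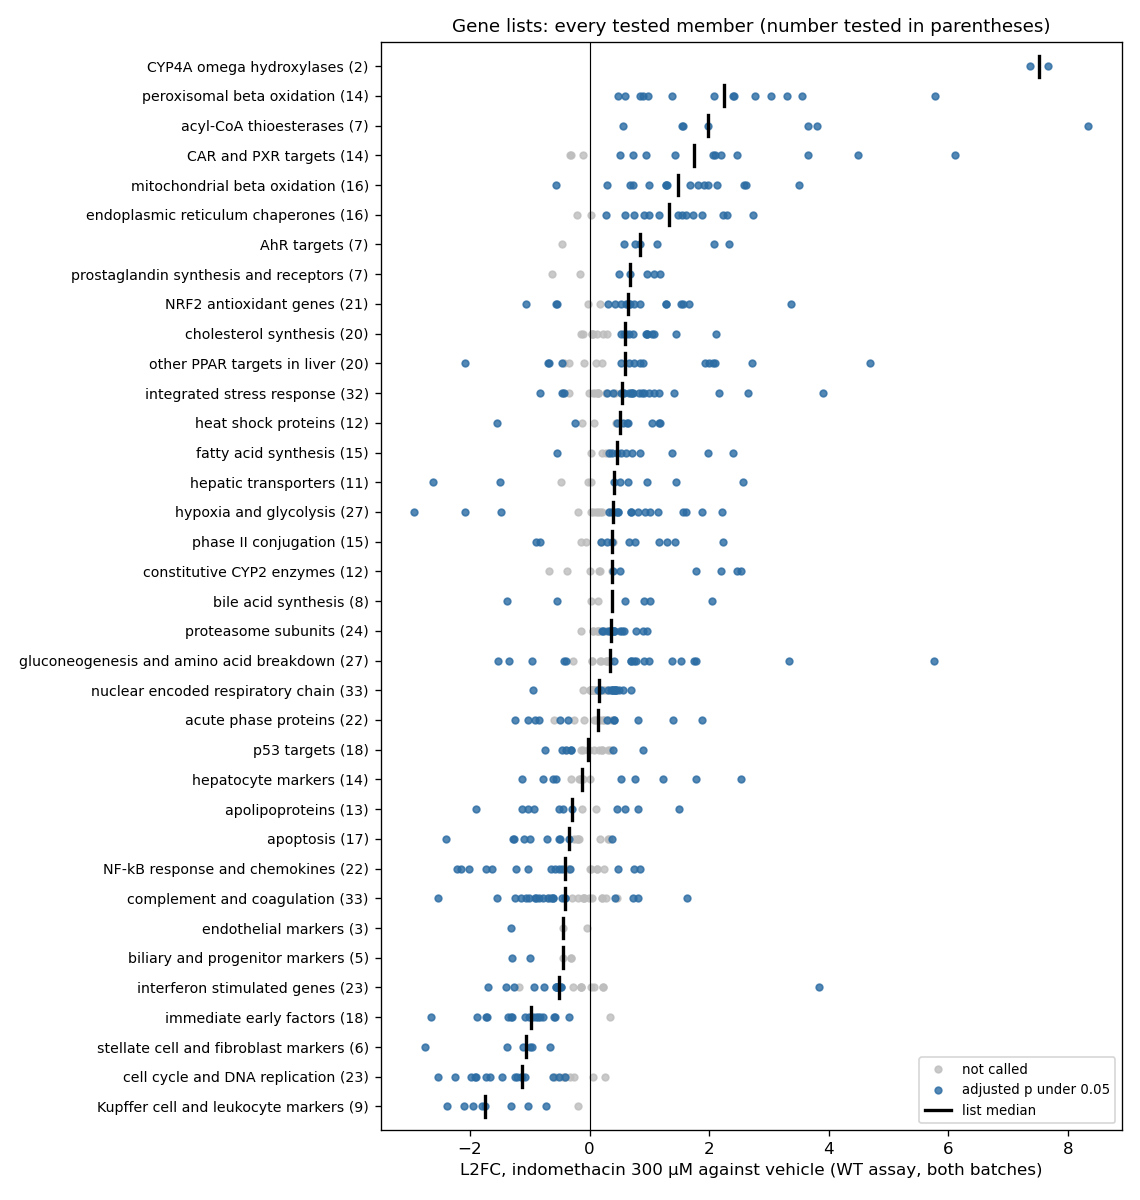
L2FC of every tested member of the 36 gene lists (1 point per gene, WT assay, both batches, 300 µM against vehicle), with the list median as a black bar and blue points for genes with an adjusted p under 0.05. The medians of the CYP4A, peroxisomal and thioesterase lists lay farthest to the right, and those of the Kupffer cell, cell cycle and stellate cell lists farthest to the left.

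Hepatocyte identity was checked first. The summed level of 14 hepatocyte markers was 40290 to 47290 CPM in the vehicle wells and 41740 to 47630 CPM in the treated wells of batch 1, then 43050 to 50760 and 33350 to 37320 CPM in batch 2. It was thus lower in all treated than in all vehicle wells of batch 2, whereas the ranges overlapped in batch 1. Of the 14 markers 5 rose, 4 fell and 5 were not called, with a median L2FC of 0.21 in batch 1 and -0.22 in batch 2, and with total counts alone 7 fell. Albumin was not called, at L2FC -0.10, while Hnf4a (0.53) and Cebpa (1.22), transcription factors of the hepatocyte, rose and transthyretin (Ttr, -0.62) fell. Kupffer cell and leukocyte markers summed to 82.3 to 98.6 CPM in vehicle and 39.7 to 44.4 CPM in treated wells of batch 1, and to 53.9 to 78.6 and 19.8 to 23 CPM in batch 2. Stellate cell and fibroblast markers went from 625 to 651 CPM to 273 to 324 CPM in batch 1 and from 346 to 446 CPM to 120 to 145 CPM in batch 2. Both sums were lower in all treated wells than in all vehicle wells of the same rat. Biliary and progenitor markers went from 46.1 to 55.3 CPM to 25.1 to 30.8 CPM in batch 1 and from 51.7 to 60.1 CPM to 27.1 to 33.5 CPM in batch 2. Most of this sum was Epcam, at batch means of 31.3 and 38.6 CPM in vehicle and 16.5 and 18.6 CPM in treated wells. The biliary keratin Krt7 held 0 counts, and Sox9 was at a mean of 3.03 CPM in vehicle and 2.48 CPM in treated wells. Endothelial markers were at 28.5 to 33.9 CPM in vehicle and 26 to 28 CPM in treated wells of batch 1, and at 26.7 to 32.7 and 25 to 27.7 CPM in batch 2, where the ranges overlapped. Most of that sum was Egfl7, at a mean of 22.2 CPM in vehicle and 21.7 CPM in treated wells. Every other endothelial marker had a mean of at most 2.63 CPM. Fewer cells of a type and less RNA per cell cannot be told apart in such bulk lysates.

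Genes of prostaglandin metabolism include the targets of the drug. Ptgs1, cyclooxygenase 1, was at 1.56, 3.39 and 2.22 CPM in vehicle and 1.36, 1.29 and 2.07 CPM in treated wells of batch 1, and at a median of 2.46 (0.939 to 2.6) CPM against 1.96, 1.47 and 0.737 CPM in batch 2. The ranges overlapped in both batches, and the L2FC of -0.63 ± 0.30 was not called (edgeR adjusted p = 0.0617). It passed the threshold under 5 of 24 alternatives, which were scaling by total counts and leaving out vehicle replicate 1 of batch 1, vehicle replicate 5 or indomethacin replicate 1 or 2 of batch 2, with values from -0.86 to -0.28 over all of them. Ptgs2, the inducible cyclooxygenase, was below the filter of a mean of 10 counts per well. Of the 7 tested genes of prostaglandin synthesis, breakdown and transport, 5 rose and 0 fell, with a median L2FC of 0.67. Ptges3, a cochaperone also known as a prostaglandin E synthase, was at 18.7, 8.39 and 20.3 CPM in vehicle and 47.7, 30.6 and 18.7 CPM in treated wells of batch 1, and at a median of 10 (8.68 to 16.1) and 15.5, 31.2 and 31.7 CPM in batch 2, with overlapping ranges in both rats and an L2FC of 1.18 ± 0.32. Abcc4, an exporter that carries prostaglandins and bile acids, was at 2.52, 1.61 and 2.39 CPM in vehicle and 3.31, 4.25 and 4.15 CPM in treated wells of batch 1, and at a median of 2.28 (1.83 to 4.49) and 6.49, 4.91 and 4.27 CPM in batch 2. Its L2FC was 0.97 ± 0.22, and 1 vehicle well of batch 2 reached the treated range. Pla2g2a, a secreted phospholipase that frees fatty acids from membranes, was at L2FC 1.07 ± 0.25 with batch in the fit and was not called without it.

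Genes of fatty acid breakdown rose together. All 14 tested genes of peroxisomal beta oxidation (27.1% of all genes were called higher), 15 of 16 of mitochondrial beta oxidation, 7 of 7 acyl-CoA thioesterases and both CYP4A genes rose, with median L2FC of 2.24, 1.48, 1.97 and 7.52. The exception was Bdh1, the ketone body dehydrogenase, which was called lower at L2FC -0.57 but not with wells summed per rat, nor with only the vehicle wells of the same plate in batch 2. Of these, 13 peroxisomal and 15 mitochondrial genes were called higher in both rats when each was tested alone (16% of all genes), and the ST assay called 12 of 12, 12 of 13, 5 of 5 and 2 of 2 of these lists higher (28.5% of all ST genes were called higher). The WT assay held 16, 16, 11 and 3 genes of these lists, and those not tested were below the count filter. That filter took the mean over the wells of all conditions. A gene silent in vehicle could thus pass it through groups where it was high, and these full scores may be partly set by it.

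Cyp4a1, which adds a hydroxyl group to the far end of fatty acids, was at 1.08, 1.61 and 2.39 CPM in the vehicle wells of batch 1 and at 413, 473 and 521 CPM in the treated wells. In batch 2 it was at a median of 1.64 (0.832 to 2.32) CPM in vehicle and 201, 254 and 347 CPM in treated wells. All 6 treated wells lay far above all 9 vehicle wells, 204-fold (95% interval 122 to 340.0), L2FC 7.67 ± 0.38. Cyp4a2 rose by L2FC 7.37 ± 0.33, from 9.97, 10.5 and 12.3 to 2786, 2863 and 2745 CPM in batch 1 and from a median of 9.91 (7.96 to 13.2) to 975, 1280.0 and 1199 CPM in batch 2. Rat CYP4A genes are close copies of each other, so that the split of reads between them is uncertain.

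Acot1, a cytosolic thioesterase that releases fatty acids from coenzyme A, was all but silent in vehicle. Its 9 vehicle wells held 2 counts in all, and the 6 treated wells held 675, a depth-scaled ratio of 527 with a counting interval of 145 to 4360 that covers counting error only. Treated wells were at 14.8, 14.8 and 22.3 CPM in batch 1 and at 13.1, 18.5 and 19.4 CPM in batch 2. Its mitochondrial neighbour Acot2, a close copy, was at 6.49, 9.11 and 6.48 CPM in vehicle and 106, 109 and 148 CPM in treated wells of batch 1 and at a median of 12 (8.31 to 12.8) and 166, 129 and 139 CPM in batch 2, an L2FC of 3.80 ± 0.17. Peroxisomal Acot4 reached L2FC 3.66 ± 0.19 and Acot3 1.97 ± 0.18.

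Ehhadh, the bifunctional enzyme of the peroxisomal pathway, was at 3, 1.96 and 0.853 CPM in vehicle and 129, 146 and 191 CPM in treated wells of batch 1. In batch 2 the values were a median of 1.59 (0.713 to 2.46) CPM and 55.3, 63.8 and 84.7 CPM, so that no well overlapped, 54.8-fold (95% interval 38.4 to 78.2). Acsl1, which activates long-chain fatty acids by joining them to coenzyme A, went from 137, 131 and 130.5 to 1714, 1719 and 2188 CPM in batch 1 and from a median of 138 (126 to 149) to 946, 928 and 1132 CPM in batch 2. Treated wells stood above all vehicle wells in both rats, and the rise was larger in batch 1 (L2FC 3.86) than in batch 2 (2.90), an interaction of batch and treatment that was called. Pex11a, a protein that drives peroxisome division, rose by L2FC 3.56 ± 0.19 and Ech1, an isomerase of unsaturated fatty acids, by 3.03 ± 0.16.

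In mitochondria, Acaa2, the last enzyme of the beta oxidation cycle, was at 212, 212 and 240.3 CPM in vehicle and 4235, 3831 and 3802 CPM in treated wells of batch 1, and at a median of 167 (149.9 to 183) and 1589.8, 2559 and 3472 CPM in batch 2. Treated and vehicle wells were apart in both rats, 16.3-fold (95% interval 13.1 to 20.4). Cpt1b, the muscle form of the carnitine transferase that lets fatty acids enter, rose by L2FC 3.51 ± 0.19, and Eci1, Decr1 and Hadh, which process unsaturated and hydroxylated intermediates, by 2.62 ± 0.15, 2.58 ± 0.12 and 2.13 ± 0.14. The liver carnitine transferase Cpt1a rose by 1.29.

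Among 20 other PPAR targets of liver, 11 rose and 4 fell, with a median L2FC of 0.59, and against medium 10 rose and 5 fell (0.32). With wells summed per rat 2 fell and without batch in the fit 1, and 0 were called lower in both rats when each was tested alone. Pdk4, the kinase that shuts pyruvate dehydrogenase, was at 0.12, 0 and 0.341 CPM in vehicle and 4.28, 3.51 and 4.49 CPM in treated wells of batch 1, and at a median of 0.205 (0 to 0.285) and 4.77, 6.75 and 2.06 CPM in batch 2. Every treated well exceeded every vehicle well, and because the 9 vehicle wells held only 10 counts its 25.8-fold (95% interval 14.1 to 47.2) is loosely bounded. Hilpda, a lipid droplet protein that slows triglyceride breakdown, rose by L2FC 2.72 ± 0.12, and Plin2, the coat protein of those droplets, by 1.99. Fabp1, the fatty acid binding protein of liver, was at 44.3, 61.8 and 38.7 CPM in vehicle and 201, 313 and 303 CPM in treated wells of batch 1 and at a median of 21.6 (17.4 to 24.5) and 59.1, 66.4 and 37.7 CPM in batch 2. Its groups were apart in both rats, with the larger change in batch 1 (L2FC 2.54 against 1.40). Lipoprotein lipase (Lpl, -0.70) and the mitochondrial carrier Ucp2 (-0.67) were among the 4 called lower, Lpl in batch 2 alone (-0.04 in batch 1 and -1.34 in batch 2) and Ucp2 in batch 1 alone (-0.76 and -0.47), and Fgf21, a liver hormone of fasting, was not called at -0.10.

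**Figure D2:**
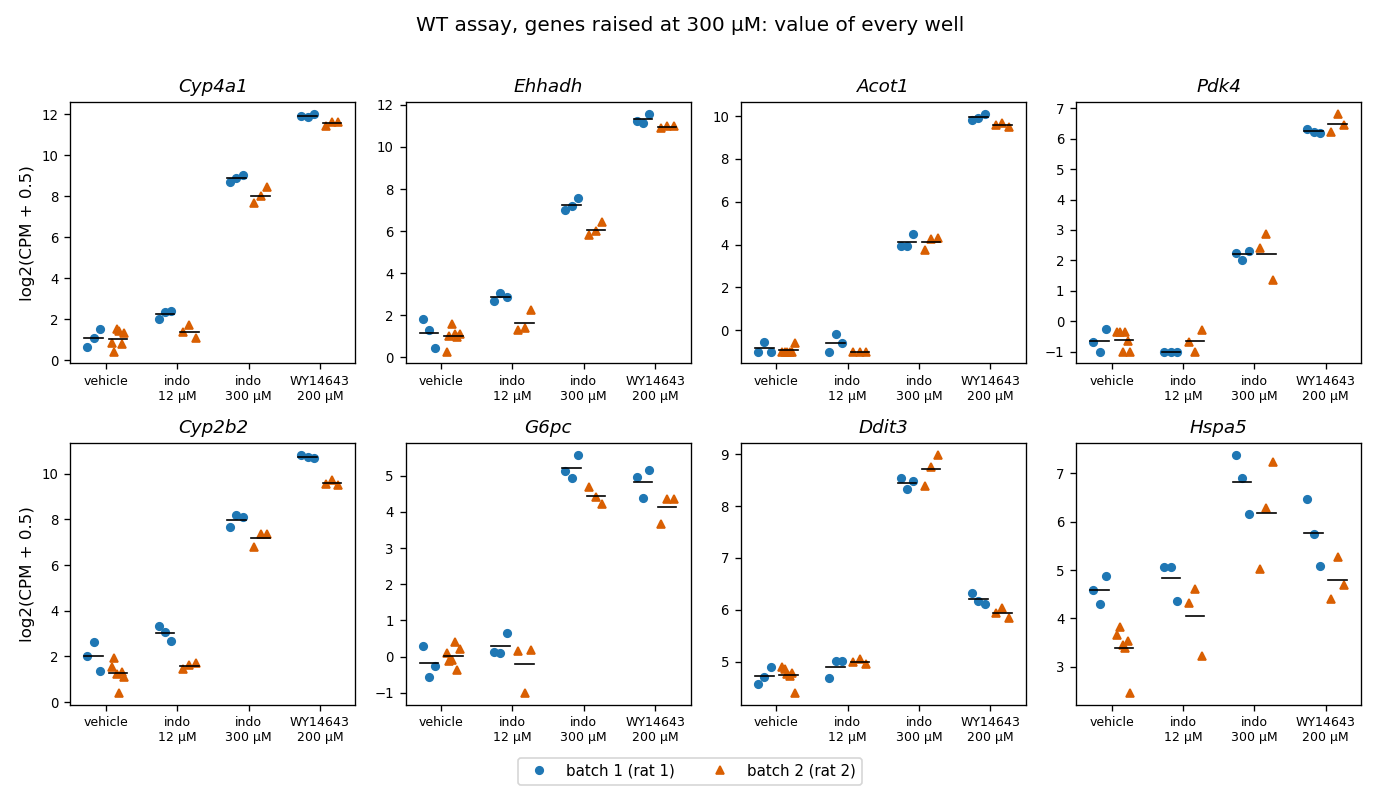
Every WT well of 8 genes that rose at 300 µM, on a log2(CPM + 0.5) scale, for vehicle, indomethacin 12 and 300 µM and WY14643 200 µM, with batch 1 as blue circles, batch 2 as orange triangles and batch means as black lines. The 300 µM wells lay above all vehicle wells for each gene, below the WY14643 wells for Cyp4a1, Ehhadh, Acot1, Pdk4 and Cyp2b2, and above them for Ddit3.

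Promoter sequence was available from RefSeq (rat build GRCr8) for most of these genes, 250 bases before to 50 after the start. The idealised PPAR and RXR element, a direct repeat of AGGTCA with 1 base between the copies, was searched on both strands with up to 2 mismatches outside the spacer, and was found in 3.77% of 33469 rat promoters. It was found in 3 of 12 matched peroxisomal genes, 2 of 12 mitochondrial genes, 2 of 7 thioesterases, 1 of 14 other PPAR targets and 0 of 1 CYP4A gene. The motif TGATGNAA, the core that CHOP and ATF4 dimers read, stood in 3.98% of promoters and in 8 of 29 genes of the integrated stress response. Such matches only describe the letters in these windows. The 120 bases before the start are shown for 3 raised fatty acid genes and 1 raised stress gene that hold a match, with the match in capitals, 5′ to 3′ on the strand of the gene: Fabp1 at chr4:104749220-104749339 (plus strand), Acot4 at chr6:109399734-109399853 (plus strand), Acadvl at chr10:55236706-55236825 (minus strand) and Trib3 at chr3:161275534-161275653 (minus strand).
Fabp1: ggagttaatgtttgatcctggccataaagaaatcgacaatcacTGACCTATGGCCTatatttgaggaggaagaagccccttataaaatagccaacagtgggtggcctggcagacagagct
Acot4: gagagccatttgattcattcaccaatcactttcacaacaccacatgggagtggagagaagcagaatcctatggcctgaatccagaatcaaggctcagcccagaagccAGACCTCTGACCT
Acadvl: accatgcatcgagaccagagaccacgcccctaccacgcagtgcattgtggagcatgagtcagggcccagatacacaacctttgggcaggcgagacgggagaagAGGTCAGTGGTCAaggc
Trib3: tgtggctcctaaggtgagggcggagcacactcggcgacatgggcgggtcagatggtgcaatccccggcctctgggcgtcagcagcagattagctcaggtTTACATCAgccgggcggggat
In Fabp1, Acot4 and Acadvl the match had 1 mismatch, at -77 to -65, -13 to -1 and -17 to -5 from the start, Fabp1 and Acot4 reading the repeat on the opposite strand. In Trib3 the exact match lay at -21 to -14 on the opposite strand. The very long chain acyl-CoA dehydrogenase Acadvl rose by L2FC 1.00.

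The question of how far the response resembled that to a PPAR alpha agonist was met by a direct contrast with WY14643, which does not use the vehicle wells. Between indomethacin 300 µM and WY14643 200 µM, 3503 genes were called (34.4%), 1612 higher (15.8%) and 1891 lower (18.6%) under indomethacin, while scaling by total counts gave 2133 higher and 1467 lower. All 14 peroxisomal genes, 16 of 16 mitochondrial genes, 7 of 7 thioesterases and both CYP4A genes were lower with indomethacin, with medians of -1.64, -1.59, -2.25 and -3.05 against -0.02 over all genes. Ehhadh was at 2414, 2268 and 3028 CPM with WY14643 in batch 1 and at 1922, 2034 and 2024 CPM in batch 2, a direct L2FC of -4.48 ± 0.24. For Fabp1 the WY14643 wells held 9693, 9752 and 11064 CPM in batch 1 and 5118, 4708 and 3597 CPM in batch 2, and the direct L2FC was -5.64 ± 0.34. In contrast, 15 of 16 ER chaperones were higher with indomethacin than with WY14643, with a median of 0.74. Of 32 genes of the integrated stress response, 13 were higher and 3 lower with indomethacin, with a median of 0.20.

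**Figure D3:**
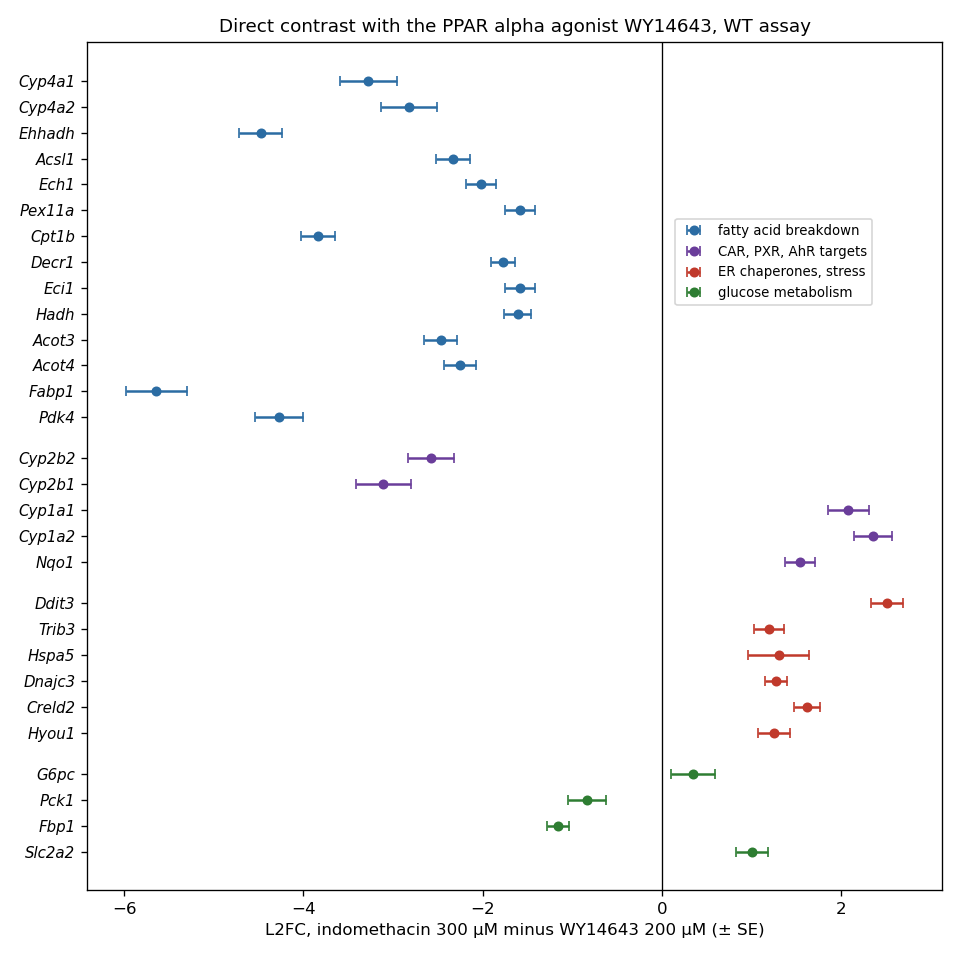
Direct L2FC of indomethacin 300 µM minus WY14643 200 µM (± SE, 6 wells each) for genes of 4 functions. All 14 fatty acid genes lay left of 0, between -5.64 for Fabp1 and -1.59 for Eci1, and the 6 ER chaperone and stress genes lay right of it, with Ddit3 at 2.51.

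Genes that receptors for foreign compounds induce were mostly higher. Of 14 CAR and PXR targets 11 rose and 0 fell (median L2FC 1.75), and of 7 AhR targets 6 rose and 0 fell (0.84). With wells summed per rat 3 AhR targets were called higher, and against medium 4. Cyp2b2, the phenobarbital-type cytochrome P450, was at 3.6, 5.71 and 2.05 CPM in vehicle and 204, 289.6 and 276 CPM in treated wells of batch 1, and at a median of 1.95 (0.825 to 3.33) and 110.02, 162 and 166 CPM in batch 2. Treated wells were above every vehicle well, 69.4-fold (95% interval 46.9 to 103), and WY14643 wells were higher still, at 1788, 1694 and 1661 CPM in batch 1 and 742, 851 and 733 CPM in batch 2. Its near copy Cyp2b1 was at L2FC 3.66 ± 0.42 from 19 counts in the 9 vehicle wells, and reads of these 2 genes may be shared. A CYP3A gene, listed on the assay as AABR07035343.1 and matched through RefSeq synonyms to Cyp3a23/3a1, was at 0.841, 0.714 and 0.682 CPM in vehicle and 24.3, 30.3 and 37.8 CPM in treated wells of batch 1, and at a median of 0.563 (0.277 to 1) and 4.77, 9.82 and 5.16 CPM in batch 2. Its groups did not overlap, and the difference from WY14643 was not called (L2FC 0.45 ± 0.25, edgeR adjusted p = 0.164). Por, the electron donor of all microsomal P450 enzymes, rose by 2.10, and the receptor genes Nr1i3 (CAR) and Nr1i2 (PXR) by 2.06 and 0.73.

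Cyp1a1, the classic AhR target, was at 35.6, 35.2 and 25.8 CPM in vehicle and 217, 193 and 156 CPM in treated wells of batch 1, and at a median of 34.2 (27.2 to 40.7) and 106, 154 and 113 CPM in batch 2. Both rats showed separate groups, L2FC 2.33 ± 0.20, and the level exceeded that with WY14643 by L2FC 2.08 ± 0.23. Cyp1a2, which shares its control region, went from 628, 607 and 434 to 3232, 3862 and 4255 CPM in batch 1 and from a median of 647 (504 to 734) to 1129.7, 1695 and 1839 CPM in batch 2, a change that was larger in batch 1 (L2FC 2.81) than in batch 2 (1.33). Of 12 constitutive CYP2 enzymes 6 rose and 0 fell (median L2FC 0.38, 0.77 in batch 1 and 0.25 in batch 2), and against medium 4 rose and 2 fell (0.20). Cyp2e1, which oxidises ethanol and acetaminophen, was at 3.72, 2.68 and 2.9 CPM in vehicle and 24.7, 43.9 and 39.7 CPM in treated wells of batch 1 and at a median of 5.3 (3.42 to 11.2) and 16.4, 15.5 and 22.1 CPM in batch 2. It rose in both rats, more in batch 1 (3.55 against 1.51). The male-specific Cyp2c11 and Cyp2c13 were not called, at -0.38 and -0.68.

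Of 21 NRF2 antioxidant genes 16 rose and 3 fell (median L2FC 0.65), and against medium 11 rose and 2 fell (0.30). Gsta2, a glutathione transferase with near-identical relatives whose reads it may share, was at 30.3, 29.1 and 30.9 CPM in vehicle and 411, 485 and 446 CPM in treated wells of batch 1, and at a median of 20 (14.5 to 29.2) and 172, 119.5 and 152 CPM in batch 2. Its groups were apart, 10.3-fold (95% interval 7.36 to 14.3). Ephx1, the microsomal epoxide hydrolase, rose by L2FC 1.56 ± 0.12 and heme oxygenase Hmox1 by 1.29, while Gclc, the catalytic subunit of glutathione synthesis (-0.54), Nfe2l2, which encodes NRF2 itself (-0.56), and Osgin1 (-1.07) fell. Of 15 conjugation enzymes 9 rose and 2 fell, with the sulfotransferase Sult2a2 at 2.23 ± 0.26, the glucuronosyltransferase Ugt2b17 at 1.44 ± 0.23 and the membrane transferase Mgst1 at 1.29 ± 0.12, against Sult1a1 at -0.83. The median was 0.64 in batch 1 and 0.16 in batch 2, and with wells summed per rat 4 rose and 0 fell.

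G6pc, Pck1 and Fbp1 rose, whereas Pklr and Slc2a2 fell. G6pc, glucose 6-phosphatase, the last step of glucose release, was at 0.721, 0.179 and 0.341 CPM in vehicle and 34.2, 30.1 and 46.8 CPM in treated wells of batch 1, and at a median of 0.502 (0.268 to 0.825) and 25.5, 20.9 and 18.3 CPM in batch 2. All treated wells stood above all vehicle wells, 54.2-fold (95% interval 34.5 to 85.2), and the difference from WY14643 was not called (L2FC 0.34 ± 0.25, edgeR adjusted p = 0.293). Pck1, which commits oxaloacetate to gluconeogenesis, went from 3.96, 6.43 and 3.41 to 38.3, 32.3 and 43.9 CPM in batch 1 and from a median of 3.6 (2.6 to 5.82) to 46.4, 37.4 and 51.1 CPM in batch 2. Its groups were also apart, 10.1-fold (95% interval 7.41 to 13.9), and Fbp1, the phosphatase between them, rose by L2FC 1.75 ± 0.11. Tat, the tyrosine transaminase that glucocorticoids induce, rose by 1.79 ± 0.13 in the presence of dexamethasone in all wells.

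Pklr, the liver pyruvate kinase at the end of glycolysis, was at 11.1, 15.4 and 13.5 CPM in vehicle and 1.94, 1.66 and 2.42 CPM in treated wells of batch 1, and at a median of 10.1 (7.41 to 11.7) and 1.22, 0.859 and 0.884 CPM in batch 2. No treated well reached the vehicle range, and Slc2a2, the low-affinity glucose carrier GLUT2, fell alike from 117, 113 and 109 to 31.9, 34.9 and 23.1 CPM in batch 1 and from a median of 101 (96.4 to 128) to 20.7, 23.2 and 22 CPM in batch 2. Their L2FC were -2.93 ± 0.26 and -2.09 ± 0.16. Of the 27 genes of gluconeogenesis and amino acid breakdown 13 rose and 5 fell (median L2FC 0.34, 0.84 in batch 1 and 0.09 in batch 2), with the urea cycle enzyme Otc at -1.53 and Kmo of tryptophan breakdown at -1.35. Of 27 hypoxia and glycolysis genes 15 rose and 3 fell (0.39). Pfkfb3, which makes the activator of phosphofructokinase, rose by 2.21 ± 0.17, the hexokinase Hk2 by 1.61 and Slc2a1 (GLUT1) by 1.14. Against medium wells in place of vehicle, 9 of these 27 rose and 5 fell (0.14), and with wells summed per rat 10 rose and 3 fell.

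Of 16 ER chaperones and their partners 14 rose and 0 fell (median L2FC 1.32), and 12 were called higher in both rats when each was tested alone (16% of all genes). For 5 of the 16 the change differed between the batches (2.5% of all genes). Hspa5 (BiP), the main chaperone of the ER lumen, was at 23.5, 19.1 and 28.8 CPM in vehicle and 165, 119 and 71.3 CPM in treated wells of batch 1, and at a median of 10.7 (5 to 13.7) and 31.8, 77.2 and 149.5 CPM in batch 2. Treated wells spread widely but all lay above the vehicle wells of their rat, 6.66-fold (95% interval 4.32 to 10.3). Dnajc3, its cochaperone and an inhibitor of the kinase PERK, went from 757, 784 and 889.9 to 4231, 3847 and 4317 CPM in batch 1 and from a median of 621 (577 to 648) to 2280.0, 2209 and 3197 CPM in batch 2, L2FC 2.23 ± 0.11. Creld2 and Hyou1, an isomerase and a chaperone induced by ER stress, reached 2.29 ± 0.13 and 1.89 ± 0.16, and Herpud1, Hsp90b1 and Atf6 were at 1.74, 1.61 and 1.49. Xbp1, whose activity depends on splicing that these probes do not read, was not called at -0.21.

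Ddit3, the stress factor CHOP, was at 23.4, 25.7 and 29.3 CPM in vehicle and 371, 319.7 and 356 CPM in treated wells of batch 1, and at a median of 27 (20.7 to 29.2) and 335, 433 and 503 CPM in batch 2. Treated wells were far from all others, 14.9-fold (95% interval 11.9 to 18.7), and exceeded WY14643 wells by L2FC 2.51 ± 0.18. Trib3, a pseudokinase that CHOP induces and whose promoter is printed above, was at 81.7, 79.8 and 77.9 CPM in vehicle and 299.5, 282 and 344 CPM in treated wells of batch 1, and at a median of 52.9 (45.1 to 61.3) and 241, 219.8 and 331 CPM in batch 2. Its groups did not overlap, L2FC 2.17 ± 0.15. Of 32 genes of the integrated stress response 19 rose and 3 fell (median L2FC 0.55), among them Stc2, a secreted glycoprotein (2.64 ± 0.30), Cebpb (1.41 ± 0.11), the hormone Gdf15 (1.16) and Atf4 itself (0.58). Asns, asparagine synthetase, at 0.42, and Chac1, which degrades glutathione, at -0.35, were not called, and Phgdh of serine synthesis (-0.43) and the mitochondrial folate enzyme Aldh1l2 (-0.82) were among the 3 called lower. With medium wells in place of vehicle this list stood at 13 higher and 9 lower (median 0.09), and the ER chaperones stood at 14 and 1 (1.36). With total counts alone the 2 lists stood at 16 and 5 (0.40) and at 13 and 0 (1.17).

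In the list of 12 heat shock proteins 7 rose and 2 fell. Hspe1, Hspa9 and Hspd1, chaperones of the mitochondria, rose by L2FC 1.18 ± 0.17, 1.16 ± 0.11 and 1.04 ± 0.15, and the small heat shock protein Cryab fell at -1.56 ± 0.18. Of 24 proteasome subunits 14 rose and 0 fell, by at most 0.96 (median 0.35), for example Psma6 at 0.89 ± 0.11 and Psmd4 at 0.58 ± 0.07. Of 33 nuclear encoded subunits of the respiratory chain 14 rose and 1 fell, with a median of 0.16. With total counts alone, 7 proteasome genes were higher and 1 lower, and 8 respiratory chain genes were higher and 3 lower with a median of 0.01. With wells summed per rat, 9 proteasome genes were higher and 0 lower, and 9 respiratory chain genes higher and 1 lower.

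For lipid synthesis the choice of control mattered. Of 15 fatty acid synthesis genes 10 rose and 1 fell (median L2FC 0.45) against vehicle, but 4 rose and 4 fell (-0.08) against the medium wells without DMSO. With wells summed per rat 6 rose and 0 fell. Scd, the desaturase that makes oleate, was at 18.9, 21.4 and 10.9 CPM in vehicle and 89.3, 78.4 and 84.3 CPM in treated wells of batch 1, and at a median of 13 (9.13 to 20.4) and 69, 98.3 and 56.9 CPM in batch 2. The medium wells held 74.2, 78.1 and 88.5 CPM in batch 1 and a median of 116 (78.8 to 154) CPM in batch 2, so that treated wells were above vehicle and in batch 1 close to medium, with overlapping ranges. Its L2FC was 2.39 ± 0.18 against vehicle and -0.39 against medium. The same turn was seen for Thrsp, a lipogenic nuclear protein (0.84 ± 0.16 and -0.26), and for Fasn, fatty acid synthase (0.38 ± 0.16 and -0.31). Fasn lost its call or changed sign under 16 of 24 alternatives, among them leaving out any 1 well of batch 2, with values from -0.31 to 0.49. Srebf1, the master factor of lipogenesis, was at 22.5, 26.8 and 21.3 CPM in vehicle, 45.9, 53.7 and 54.4 CPM in treated and 33.2, 29.4 and 36.2 CPM in medium wells of batch 1, and at L2FC 1.38 ± 0.13.

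Of 20 cholesterol synthesis genes 12 rose and 0 fell (median L2FC 0.60), 11 rose and 2 fell against medium (0.42), and 8 rose and 0 fell with wells summed per rat. Insig1, the sterol sensor that holds SREBP in the ER, was at 623, 713 and 722 CPM in vehicle and 2914, 2599.8 and 2489.9 CPM in treated wells of batch 1, and at a median of 637 (540.0 to 966) and 2929.6, 3532 and 3301 CPM in batch 2. Treated wells exceeded all vehicle wells and also the medium wells, at 842, 969 and 1046 CPM in batch 1 and a median of 1435 (1163 to 1626) CPM in batch 2. Fdps, farnesyl diphosphate synthase, rose by L2FC 1.44 ± 0.18, whereas Hmgcs1 and Idi1 were at 0.04 and -0.10, not called. The list differed between the batches, with medians of 0.18 in batch 1 and 0.98 in batch 2 and 6 of 20 genes called for the difference (2.5% of all genes).

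Among 13 apolipoprotein and lipoprotein genes 4 rose and 7 fell, against medium 1 rose and 8 fell, and with wells summed per rat 2 rose and 5 fell. Mttp, the protein that loads lipid onto apolipoprotein B, was at 178, 173 and 165 CPM in vehicle and 460.0, 453 and 449 CPM in treated wells of batch 1, and at a median of 141 (133 to 145) and 339, 391 and 490.3 CPM in batch 2, L2FC 1.49 ± 0.10. Apoa1, the main protein of high density lipoprotein, was at 11932, 12808 and 10055 CPM in vehicle and 5493, 6525 and 6842 CPM in treated wells of batch 1, and at a median of 11592 (9422 to 12476) and 4738, 4804 and 4258 CPM in batch 2. Mttp was higher and Apoa1 lower in every treated well.

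Transporters of bile and drugs moved both ways, 6 of 11 higher and 2 lower. Abcb4, which exports phospholipid into bile, was at 1.08, 1.07 and 0.682 CPM in vehicle and 5.06, 5.54 and 6.56 CPM in treated wells of batch 1 and at a median of 0.937 (0.55 to 2) and 6.24, 6.63 and 6.63 CPM in batch 2. Abcb11, the bile salt export pump, went from 89.1, 76.1 and 73 to 306, 283 and 271 CPM in batch 1 and from a median of 122 (108 to 132) to 262, 278 and 234 CPM in batch 2. Both were higher in all treated wells (L2FC 2.57 ± 0.26 and 1.45 ± 0.14). The 2 that fell were uptake carriers. Slc22a8, an organic anion transporter, was at 178, 162 and 187 CPM in vehicle and 28.8, 26.6 and 36.1 CPM in treated wells of batch 1, L2FC -2.62 ± 0.16, and Slco1a1 was at -1.49 ± 0.22. Against medium wells 5 rose and 4 fell, and the median turned from 0.41 to -0.33. Of 8 bile acid synthesis genes 4 rose and 2 fell (median L2FC 0.37, and 0.09 against medium), with the steroid reductase Akr1d1 at 2.04 ± 0.23 and Fgfr4, the receptor that signals bile acid sufficiency, at -1.38 ± 0.14. Fgfr4 had batch means of 66.3 and 51.8 CPM in vehicle and 31.9 and 15.9 CPM in treated wells. Medium wells lay between them, at 40.3 and 30.2 CPM, and over 24 alternatives its L2FC was between -1.54 and -0.62.

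Vil1 had the largest fall among genes that were called in each batch and had a mean of at least 50 counts in the vehicle wells. Vil1, villin, which bundles actin in microvilli such as those of the bile canaliculus, was at 24.1, 22.3 and 23.2 CPM in vehicle and 0, 0.738 and 1.55 CPM in treated wells of batch 1, and at a median of 20 (15 to 22.1) and 0.367, 0.491 and 0.884 CPM in batch 2. All treated wells were near the lower end of detection, 31.4-fold lower, L2FC -4.97 ± 0.23. Acta1, a muscle actin expressed in cultured hepatocytes, was at 168, 159 and 151 CPM in vehicle and 15, 12.4 and 25.4 CPM in treated wells of batch 1, and at a median of 243 (204 to 277) and 12.5, 11.4 and 11.9 CPM in batch 2. It was 15.1-fold lower with no overlap. Thbs1, thrombospondin 1, an activator of TGF-beta, was at 260.2, 262 and 286 CPM in vehicle and 17.3, 28.4 and 35.8 CPM in treated wells of batch 1, and at a median of 191 (151 to 231) and 16.5, 24.3 and 22.4 CPM in batch 2. It was 9.79-fold lower, and Edn1, the vasoconstrictor endothelin 1, was 9.37-fold lower, at 8.77, 7.5 and 10.9 CPM against 0.389, 0.923 and 0.691 CPM in batch 1 and a median of 18.7 (13.2 to 21.3) CPM against 2.69, 1.6 and 2.21 CPM in batch 2. Ankrd1, a target of the Hippo pathway factor YAP, fell, at L2FC -3.58 ± 0.27, the integrin Itgb4 by -3.43 ± 0.24, the Wnt-responsive factor Sp5 by -3.51 ± 0.27 and the receptor Flt4 by -3.39 ± 0.26. The last 2 were below 20 CPM in all vehicle wells. So were Map3k7cl (-3.73 ± 0.28), Gimd1 (-3.32 ± 0.33) and, with at most 24 counts in a vehicle well, Crct1 (-3.64 ± 0.66), which also fell.

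**Figure D4:**
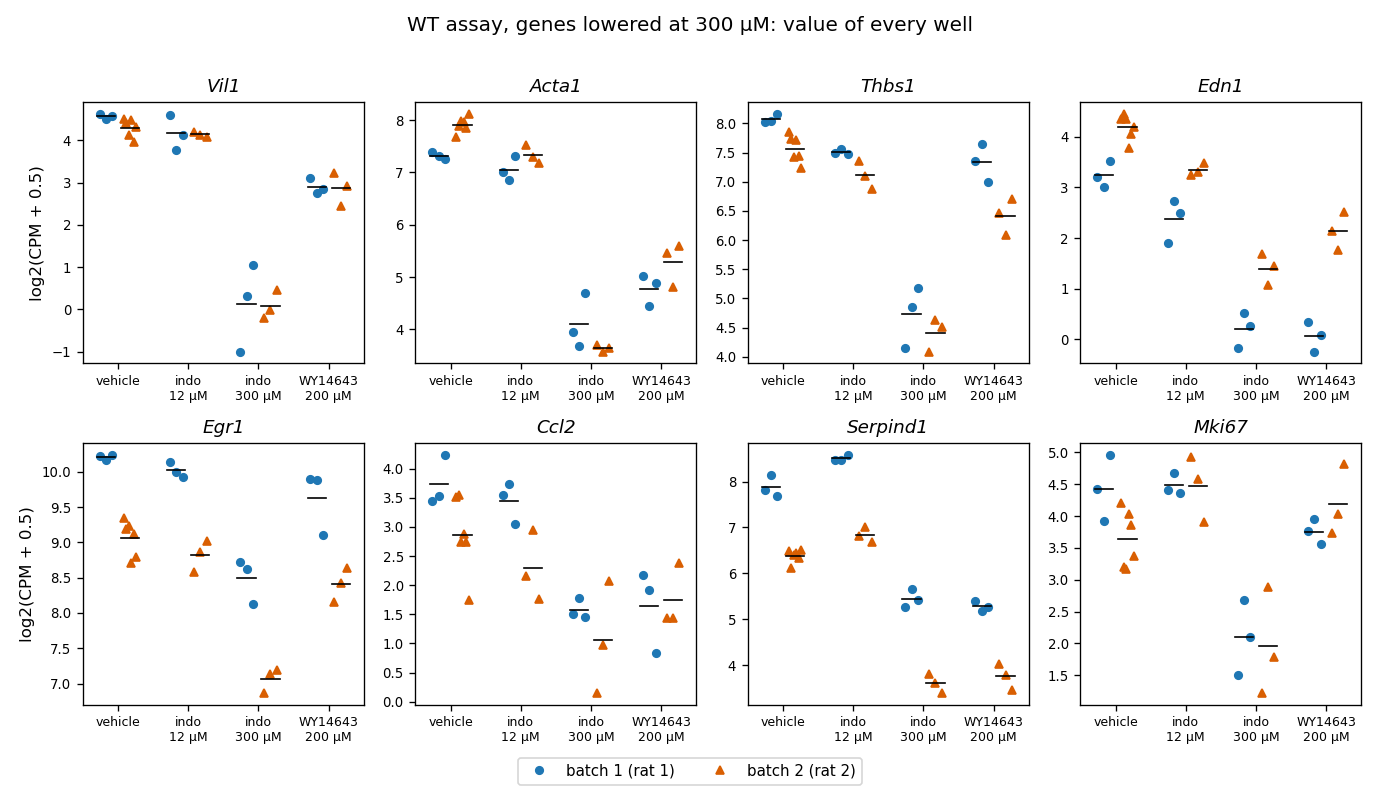
Every WT well of 8 genes that fell at 300 µM, on a log2(CPM + 0.5) scale, for vehicle, indomethacin 12 and 300 µM and WY14643 200 µM, with batch 1 as blue circles, batch 2 as orange triangles and batch means as black lines. The 300 µM wells lay below the vehicle wells of the same batch except for 1 well of Ccl2 in batch 2, and the 12 µM means lay between vehicle and 300 µM in both batches for Vil1, Acta1, Thbs1, Edn1, Egr1 and Ccl2.

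Immediate early factors, which growth factors and stress induce within minutes, were lower 24 h after dosing. Of 18, 0 rose and 17 fell, with a median L2FC of -0.98 (27.6% of all genes were called lower), against medium wells 0 rose and 16 fell, and with wells summed per rat 0 rose and 11 fell. Egr1, a zinc finger factor of this class, was at 1193, 1154 and 1203 CPM in vehicle and 422, 394 and 279.5 CPM in treated wells of batch 1, and at a median of 571 (416 to 652) and 116, 139 and 145 CPM in batch 2. Vehicle levels differed between the rats, but the groups were apart within each, L2FC -1.89 ± 0.22. Egr2 fell at -2.65 ± 0.24 and Fosl1 by -1.73 ± 0.30, while Myc was not called at 0.35.

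Of 22 NF-kB and chemokine genes 3 rose and 12 fell (median L2FC -0.41), but 8 rose and 6 fell against medium wells (0.05). Ccl2, which attracts monocytes, was at 10.5, 11.1 and 18.2 CPM in vehicle and 2.33, 2.95 and 2.25 CPM in treated wells of batch 1, and at a median of 6.55 (2.83 to 11.2) and 0.612, 1.47 and 3.68 CPM in batch 2, where 1 treated well entered the vehicle range. Its L2FC was -2.21 ± 0.42. Cxcl2, which attracts neutrophils, fell at -2.01 ± 0.23 against vehicle and was not called against medium (-0.44), whose wells were at 3.76, 5.44 and 6.55 CPM in batch 1. Of 23 interferon stimulated genes 1 rose and 13 fell (median -0.51), 2 rose and 5 fell against medium (-0.24), and 1 rose and 7 fell with wells summed per rat. Only 3 of the 23 were called lower in both rats when each was tested alone, near the share of all genes (14.3%), and the median was -0.75 in batch 1 and -0.23 in batch 2. The riser was Rsad2, the antiviral protein viperin, at 0.24, 1.25 and 0.171 CPM in vehicle and 1.56, 1.85 and 1.38 CPM in treated wells of batch 1 and at a median of 0.236 (0 to 1.01) and 6.49, 15.1 and 3.68 CPM in batch 2. It rose at low level, from 25 counts in all vehicle wells, L2FC 3.83 ± 0.65, whereas Gbp2, a guanylate binding protein, fell at -1.71 ± 0.24. Gbp2 had batch means of 21 and 52.2 CPM in vehicle and 7.95 and 14.8 CPM in treated wells. Medium wells lay between them, at 12.6 and 24 CPM. Over 24 alternatives its L2FC was between -1.86 and -0.70. The Kupffer cell marker sums above were lower in the same wells, and their part in these counts was not tested.

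Of 16 Kupffer cell and leukocyte markers on the assay 9 passed the count filter, of which 0 rose and 8 fell (median L2FC -1.75). Of 13 stellate cell and fibroblast markers on the assay 6 passed it, of which 0 rose and 6 fell (-1.06). Among the stellate cell markers below the filter, Dcn, Pdgfrb, Lum and Des had higher means over treated than over vehicle wells. Acta2, Col1a1 and Col4a1 had lower ones. All of these means were at most 1.34 CPM and make no allowance for batch. The Kupffer cell list had a median of -1.04 in batch 1 and -2.18 in batch 2, and the stellate cell list of -0.77 and -1.43. Without batch in the fit, 5 Kupffer cell markers and 2 stellate cell markers were called lower, with medians of -1.21 and -0.71. C1qc, a complement subunit made by macrophages, was at 20.7, 23 and 22.9 CPM in vehicle and 7, 8.12 and 8.12 CPM in treated wells of batch 1, and at a median of 16.7 (14.1 to 23.4) and 3.18, 3.68 and 4.57 CPM in batch 2. All treated wells were below all vehicle wells, and Cd163, Vsig4 and Cd5l, receptors and a secreted protein of liver macrophages, were at L2FC -1.79 ± 0.26, -2.38 ± 0.33 and -2.09 ± 0.33, while Cd68 was not called at -0.19. Among the stellate cell markers the collagen Col3a1 fell at -1.12 ± 0.18 and the contractile protein Tagln by -2.75 ± 0.29, and Col3a1 was not called without batch in the fit. Of 3 tested endothelial and 5 tested biliary and progenitor markers 1 and 2 fell, and against medium 2 and 4.

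Of 23 cell cycle and DNA replication genes 0 rose and 16 fell (median L2FC -1.14), 13 of them by at least 2-fold (9.43% of all genes). The median was -1.70 in batch 1, -0.52 in batch 2 and -0.74 against medium, and 7 genes were called lower in both rats when each was tested alone (14.3% of all genes). Mki67, a marker of dividing cells, was at 20.9, 14.6 and 30.5 CPM in vehicle and 2.33, 5.91 and 3.8 CPM in treated wells of batch 1, and at a median of 12 (8.54 to 18) and 1.84, 6.87 and 2.95 CPM in batch 2. Treated wells were lower in both rats, L2FC -1.99 ± 0.35. Mcm5, a subunit of the replicative helicase, fell at -1.91 ± 0.35, Bub1b of the spindle checkpoint by -2.53 ± 0.53 and cyclin D1 (Ccnd1) by 1.67 on the log2 scale. These transcripts can come from any cell of the culture, and the cell type behind them was not tested.

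Secreted hepatocyte proteins of clotting and complement were mostly lower, 17 of 33 against 4 higher (median L2FC -0.41, -0.22 in batch 1 and -0.57 in batch 2), or 14 against 2 with wells summed per rat. Serpind1, heparin cofactor II, was at 224, 280.2 and 206 CPM in vehicle and 38.1, 50.2 and 42 CPM in treated wells of batch 1, and at a median of 85 (68.8 to 90.1) and 13.6, 11.8 and 10 CPM in batch 2. No well overlapped within a rat, and the level was 5.8-fold lower. F5, coagulation factor V, fell at -1.55 ± 0.11 and Mbl2, a lectin that starts complement, by -1.25 ± 0.10. Of 22 acute phase proteins 6 were higher and 6 lower, both near the shares of all genes (27.1% and 27.6%), with C-reactive protein (Crp) at 1.87 ± 0.20 and the endotoxin receptor Cd14 at 1.40 ± 0.15 against haptoglobin (Hp) at -1.02 ± 0.18 and the inhibitor chain Itih3 at -1.24 ± 0.12. The median of that list was 0.14, and -0.01 when libraries were scaled by total counts.

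Of 17 apoptosis genes 1 rose and 9 fell (median L2FC -0.34), and 3 rose with only the vehicle wells of the same plate in batch 2. Apaf1, the scaffold of the apoptosome, was at 13.2, 12.7 and 14 CPM in vehicle and 1.94, 3.69 and 2.94 CPM in treated wells of batch 1, and at a median of 16 (13.5 to 17.8) and 3.67, 2.45 and 1.92 CPM in batch 2, 5.27-fold lower with no overlap. Members that promote death (Bmf at -1.26 ± 0.20, Bak1 at -1.09 ± 0.12) and that protect from it (Bcl2 at -1.28 ± 0.15) were both lower, and Bcl2l1, a protective member, rose by 0.37. Of 18 p53 targets 2 rose and 5 fell, the latter near the share of all genes (27.6%). With each rat tested alone, 2 targets were called higher and 1 lower in both, and the list median was -0.20 in batch 1 and 0.23 in batch 2. With wells summed per rat 1 rose and 2 fell, and 3 fell without batch in the fit and against medium, with Cdkn1a (0.34) and Mdm2 (0.20) not called and Gadd45b at 0.89 ± 0.15.

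Fewer genes were called at the low concentration. 1 of the 12 µM wells, replicate 1 of batch 2, stood apart with 26.9% of probes at 0, where the other WT wells had at least 33% and a median of 37.8%. Against vehicle, 598 genes were called at 12 µM (5.87%), 360 higher (3.53%) and 238 lower (2.34%), and 454 without that well. Between 300 and 12 µM, whose wells alternate on 1 row of the same plate in each batch, 4387 genes were called (43%), 2092 higher (20.5%) and 2295 lower (22.5%), and 4165 without that well. All wells of this contrast shared a plate within each rat. In it, 11 of 14 peroxisomal genes, 13 of 16 mitochondrial genes and 13 of 16 ER chaperones were higher at 300 µM, and 15 of 18 immediate early factors, 8 of 9 Kupffer cell markers and 19 of 23 cell cycle genes were lower. Of the 20 cholesterol synthesis genes, 12 of which were called higher at 300 µM than in vehicle, 1 was higher and 8 were lower at 300 than at 12 µM.

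Some genes were already called at 12 µM. Ehhadh was at 5.87, 7.9 and 6.82 CPM in batch 1 and 1.97, 2.16 and 4.2 CPM in batch 2 (L2FC 1.25 against vehicle, edgeR adjusted p = 0.0151). It lay between vehicle and 300 µM in batch 1, whereas 2 of the 3 wells of batch 2 were inside the vehicle range. Insig1, at 1284, 1133 and 1193 CPM in batch 1 and 1471, 1635 and 1593 CPM in batch 2, was between vehicle and 300 µM in both rats, in batch 2 inside or just above the range of the medium wells, L2FC 1.02 at 12 µM and 2.12 at 300 µM. Fdps was at 205, 143 and 170.0 CPM and 133, 141 and 96.3 CPM at 12 µM, L2FC 1.40, and its contrast of 300 with 12 µM was not called at 0.04 ± 0.20. The well that stood apart, the first of each set of batch 2, was the lowest of its set for Ehhadh and Insig1. Nnat, neuronatin, an ER membrane protein, was at 5.77, 3.04 and 2.73 CPM in vehicle, 7.93, 8.47 and 12.9 CPM at 12 µM and 1.56, 1.11 and 1.55 CPM at 300 µM in batch 1, and in batch 2 at a median of 6.76 (5.21 to 8.5) CPM in vehicle, 38.1, 47.4 and 57.2 CPM at 12 µM and 1.59, 2.21 and 1.03 CPM at 300 µM. It was higher than vehicle at 12 µM and lower at 300 µM in both rats. Its medium wells were at 49.4, 59.2 and 46 CPM in batch 1, above all wells at 12 µM, and at a median of 52 (41.5 to 75.5) CPM in batch 2, where the ranges overlapped.

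The 2 batches gave the same sign for most called genes. Of 3110 genes called in each batch by itself, 22 had opposite signs, and these 3110 were 74.5% of the calls of batch 1 and 64.1% of those of batch 2. A difference between the batches was called for 255 genes (2.5%), 89 higher (0.873%) and 166 lower (1.63%) in batch 2, and 104 of them had opposite signs. With RLE size factors the split was 80 and 200, and with total counts alone 233 and 76. Lect2, a secreted chemotactic protein of hepatocytes, was at 297, 315 and 248 CPM in vehicle and 614, 597 and 625 CPM in treated wells of batch 1, and at a median of 509.8 (425 to 536) and 401, 367 and 362 CPM in batch 2. It was higher in all treated wells of the first rat and lower in all of the second, L2FC 1.14 and -0.35. Sult1e1, estrogen sulfotransferase, was at 1.32, 0.714 and 1.53 CPM in vehicle and 11.3, 11.1 and 12.1 CPM in treated wells of batch 1 and at a median of 3.8 (2.57 to 8.32) and 5.14, 4.3 and 2.06 CPM in batch 2. It was higher in 3 of 3 treated wells of batch 1 and overlapped with vehicle in batch 2. Fasn had the reverse pattern, at 61.4, 73.4 and 63.4 CPM in vehicle and 38.5, 55.2 and 52.2 CPM in treated wells of batch 1 and at a median of 24.5 (23 to 29.5) and 50.4, 45.2 and 52.7 CPM in batch 2, L2FC -0.40 and 1.01. The cysteine dioxygenase Cdo1 (1.15 and -0.50), the splicing-related protein Rsrp1 (0.67 and -0.08) and the glutathione transferase Gsta4 (2.49 and 0.94) also had larger L2FC in batch 1.

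**Figure D5:**
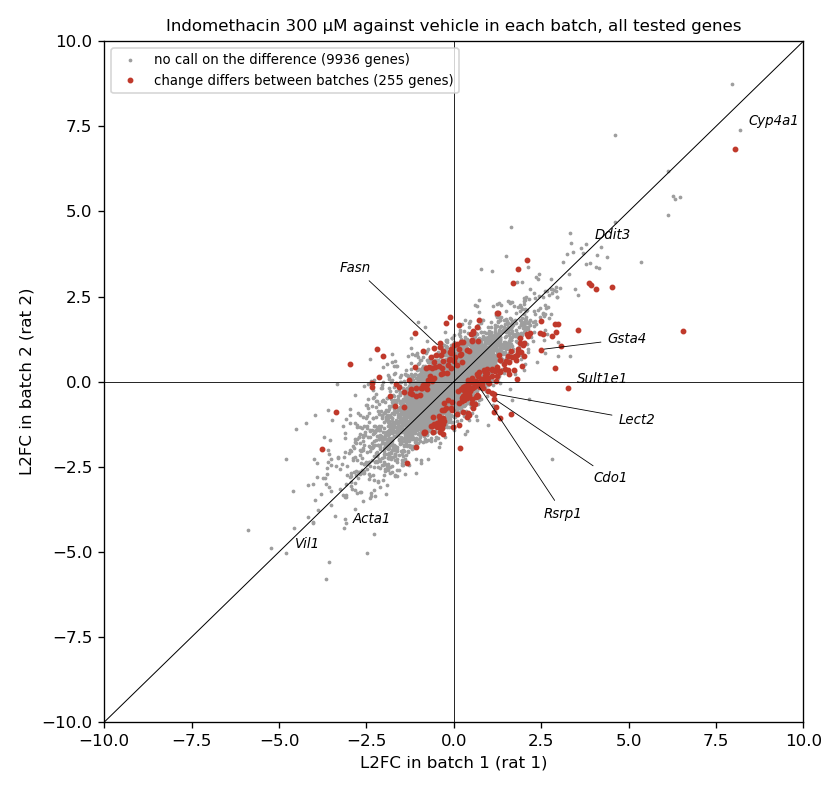
L2FC of 300 µM against vehicle in batch 1 (x axis) and batch 2 (y axis) for all 10191 genes, with the 255 genes called for a difference in red and the line of equal change in black. Most genes lay along the line, Cyp4a1 and Ddit3 at the upper right, Vil1 and Acta1 at the lower left, and Lect2, Cdo1 and Fasn in the quadrants of opposite sign.

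Set against the mean of the other 13 high concentrations, 5083 genes were called (49.9%), 2598 higher (25.5%) and 2485 lower (24.4%) with indomethacin, or 1786 and 3401 with total counts alone. In this contrast 13 of 14 peroxisomal genes, 15 of 16 ER chaperones, 28 of 32 integrated stress response genes and 20 of 33 complement and coagulation genes were higher, and 14 of 18 immediate early factors and 16 of 23 cell cycle genes were lower. Cyp1a1 was higher by L2FC 3.44, Cyp4a1 by 4.38, Cyp2b2 by 3.83 and G6pc by 3.55. For Serpind1 the difference of 0.19 was not called. Slc17a3, a urate and organic anion transporter, was higher by 1.94 and also exceeded WY14643 by 2.61 ± 0.21.

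Naproxen and diclofenac, both carboxylic acid cyclooxygenase inhibitors, were in the study at other concentrations, 2000 and 400 µM, and are set beside indomethacin without a test. All of these values share the vehicle wells. The L2FC of Cyp4a1 was 7.67 with indomethacin, 9.07 with naproxen and 4.18 with diclofenac. For Ddit3 the values were 3.90, 3.34 and 6.30 in the same order, for Cyp1a1 2.33, 0.09 and -3.45, and for Cyp2b2 6.12, 4.59 and 1.09. Vil1 was at -4.97 with indomethacin and -4.98 with naproxen.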

How the data were processed

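TempO-Seq was run on lysates of rat hepatocytes with the WT and the ST panel. Per the labels and the study's methods, the authors aligned reads with STAR (version 2.5.3a) to rat genome build rn6 and deposited raw read counts per probe (22253 WT and 2654 ST probes). From these counts, probes of a gene were summed, genes whose mean over all wells was under 10 counts were left out (10191 of 20946 WT genes and 1760 ST genes remained), and edgeR 4.0.16 in R 4.3.3 (TMM, quasi-likelihood test, Benjamini-Hochberg adjustment) was fitted to the wells of all 30 conditions with batch as a term. DESeq2 1.42.0 was an alternative. ST libraries of the treated wells held 962345 to 1409467 counts in batch 1 and 1406722 to 2210264 in batch 2. The depth bounds low genes most, and counting intervals cover counting error only. Of 800 list entries, 688 matched by symbol, 15 by a RefSeq synonym and 97 not at all. Scripts were tested on simulated data.

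Members and gene lists were chosen with earlier results of these data known. Genes were named by rule: the 12 largest rises and falls, called in each batch with a mean of at least 50 counts in the higher group, up to 4 per list, the cyclooxygenases, the 6 clearest differences between batches, and 5 per side of the contrasts with 12 µM, the other high concentrations and WY14643. List members given by an L2FC alone were chosen after their values were seen. Batch, which joins the rat with its library construction and sequencing run, was the only block, because replicate numbers are not in the labels. The alternatives with medium wells as controls and without 1 well at 12 µM were chosen after seeing the data. Some items are not reported here.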

Additional observations from a re-analysis of the deposited data

Results flagged for a closer look

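In the 6 vehicle wells of batch 2, 1 well stood apart from the others for 5 of the 115 genes screened, and chance gives this for about 5% of genes, so that the number is near what chance gives. Some list members given above by an L2FC alone, such as Lpl, were not among the genes screened. The gap to the nearest well, as a share of the whole range, was 0.803 for Abcc4, 1 for Acot1, 0.646 for Apoa1, 0.659 for Creld2 and 0.75 for Ptges3. Apoa1 was lowest in replicate 2, at 9422 CPM beside 11394 CPM in the nearest well. For Acot1 the well was the only one of the 6 with any count.

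The effect of 300 µM differed between the batches, by the interaction of batch and treatment in edgeR, for 17 of the 115 genes screened. Batch joins the rat with its library construction and sequencing run, and in batch 1 treatment also differed from vehicle in plate. As the L2FC of batch 2 minus that of batch 1, the difference was -0.75 for Abcb11, -0.956 for Acsl1, -0.896 for Cd14, -1.64 for Cdo1, -0.738 for Cebpa, -1.47 for Cyp1a2, -2.03 for Cyp2e1, -1.2 for Cyp4a2, -1.14 for Fabp1, 1.42 for Fasn, -1.1 for Gsta2, -1.54 for Gsta4, -1.49 for Lect2, -0.633 for Mbl2, -0.742 for Rsrp1, 1.46 for Stc2 and -3.47 for Sult1e1. In Cdo1, Lect2 and Fasn the groups of wells were apart in opposite directions in the 2 rats. Genes were named in part by this interaction, so that their number says nothing of how common it was.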

How the results depend on the processing

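Counts of genes called kept within 1.5 times their first value under DESeq2, RLE factors, total counts, probes in place of genes and only the wells of each contrast. With an absolute L2FC of at least 1 also required, the counts were 1412 for 300 µM against vehicle, 1534 in batch 1, 1413 in batch 2, 396 in the ST assay, 97 for the difference between batches, 1158 against 12 µM, 774 against the other high concentrations and 758 against WY14643. Without the filter on low counts, 168 genes differed between batches, and with wells summed per rat 2286 differed from WY14643. Left out 1 at a time, the wells gave 5246 to 5587 genes against vehicle, 3438 to 3807 in batch 1, 4143 to 4757 in batch 2, 4135 to 4344 against 12 µM, 4514 to 4858 against the other high concentrations and 3260 to 3530 against WY14643. With medium in place of vehicle wells, L2FC became -0.39 for Scd, -0.31 for Fasn and -0.26 for Thrsp; the cause was not tested. Without the batch block, 4983 genes were called against vehicle, 955 in the ST assay, 3712 against 12 µM, 4395 against the other high concentrations and 2878 against WY14643. The labels give the plate and well of each library but no replicate number, and a block by plate or position was not tried. The p-values rest on wells of 2 rats, and genes of few counts are bounded by depth.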
